A study of Mus musculus with 18 samples.

Results

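A set of 40 genes of ribosome production were followed through the arrays: 4 of the RNA polymerase I machinery, 7 nucleolar organisers and regulators, 7 proteins of small nucleolar ribonucleoproteins (snoRNPs), 12 assembly factors of the small ribosomal subunit and 10 of the large one. The 40 members were a list of known outputs of the transcription factor MYC, fixed by name and found through the RefSeq transcript that each probe is annotated to, and they stand among 16018 genes tested. All 40 were found. Their 69 probes read well above background on all 18 arrays, so none was lost to the filter on dim probes, and each gene was read from its brightest probe.

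The cells were mouse embryonic stem cells of strain 129SV, and RNA of 18 samples was hybridised to 1 array each. Every sample carried an Esrrb knockout and Raf-ErT2, a Raf kinase fused to a modified oestrogen receptor, which 4-hydroxytamoxifen (4OHT) switches on and which then activates Mek and ERK. Cells labelled KO had received an empty vector and cells labelled Rescue an Esrrb transgene, and the labels do not say how many clones either line stands for. Each line had 3 arrays titled 0h, 3 titled 8h and 3 titled 8h2h. For 24 h beforehand, 250 nM of the FGF receptor inhibitor PD173074 had replaced 2 uM Chir99021 in the serum and LIF medium of all cells. Untreated cells were 0h, the 8h treatment was 250 nM 4OHT, and the 8_2h treatment of the protocol added a Mek inhibitor for 2 h after 8 h of 4OHT. Replicates a, b and c are 1 slide each, nothing in the labels says that they were separate cultures, and p values therefore measure the spread between these arrays only. The design asks what ERK does to transcripts in 8 h, what a short loss of Mek activity then does, and whether Esrrb matters to either.

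Ribosomes are built in the nucleolus. RNA polymerase I transcribes the long precursor of the ribosomal RNAs, snoRNPs guide its chemical modification, and large sets of assembly factors fold, cut and export the subunits. Transcription of many of these factors is known to be raised by MYC, which binds with MAX to the E-box CACGTG, and pluripotent stem cells are known for large nucleoli and a high rate of ribosome production.

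RefSeq promoters (assembly GRCm38.p6, 250 bases before to 50 after the annotated start) were at hand for 35 of the 40 members. The palindrome CACGTG, which reads the same on both strands, was found in the promoters of 9 of these 35 genes (25.7%), compared with 11.0% of 12672 tested genes and 8.09% of all 27025 genes with a promoter. It was found in 13 of 69 other ribosome assembly factors (18.8%) and in 6 of 56 cytosolic ribosomal protein genes (10.7%). The 2 members with the motif before the start are shown in full for those 250 bases, because Rrn3, the factor that brings RNA polymerase I to its promoter, is described below as 1 of the members that moved. The motif stands in capitals. It lies 215 and 48 bases before the start of Rrn3 (chr16:13780449-13780698, plus strand) and 60 bases before the start of Nop2, an rRNA methyltransferase gene (chr6:125131633-125131882, plus strand).
Rrn3: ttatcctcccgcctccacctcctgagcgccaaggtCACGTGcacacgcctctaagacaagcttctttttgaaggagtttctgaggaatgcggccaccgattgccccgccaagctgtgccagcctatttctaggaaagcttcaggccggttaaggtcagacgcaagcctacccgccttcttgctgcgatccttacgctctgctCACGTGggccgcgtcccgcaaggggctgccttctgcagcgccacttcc
Nop2: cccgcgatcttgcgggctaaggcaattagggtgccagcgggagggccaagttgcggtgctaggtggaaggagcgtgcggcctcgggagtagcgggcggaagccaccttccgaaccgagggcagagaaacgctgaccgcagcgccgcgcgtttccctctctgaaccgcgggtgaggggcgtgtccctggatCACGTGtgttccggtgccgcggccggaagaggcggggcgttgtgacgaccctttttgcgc

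In the other 7 genes the motif lay within the 50 bases after the start, a stretch that held it in 20% of member genes and in 2.21% of the tested genes, whereas the 250 bases before the start held it in 5.71% of member genes and 9.28% of the tested genes. In the other ribosome assembly factors the shares were 8.70% after the start and 11.6% before it. The sites of the 7 members are shown with their flanks because their place, between 2 and 40 bases after the start, sets them apart from the pair above. They belong to the large subunit factors Grwd1 (chr7:45830740-45830765, minus strand) and Pes1 (chr11:3963967-3963992, plus), the small subunit factors Ltv1 (chr10:13193094-13193119, minus), Tsr1 (chr11:74898094-74898119, plus), Utp20 (chr10:88826765-88826787, minus) and Wdr43 (chr17:71616222-71616247, plus), and the nucleolar protein Mybbp1a (chr11:72441357-72441376, plus).
Grwd1: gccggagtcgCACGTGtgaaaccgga
Pes1: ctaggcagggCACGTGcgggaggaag
Ltv1: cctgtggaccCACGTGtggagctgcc
Tsr1: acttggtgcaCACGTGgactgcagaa
Utp20: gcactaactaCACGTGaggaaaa
Wdr43: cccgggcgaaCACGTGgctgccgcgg
Mybbp1a: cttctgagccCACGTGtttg

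Values are log2 scaled signal, the log2 of a spot's processed signal minus the log2 of its array's 75th percentile of probe signal, and a change is a shift against that percentile, 1 being a 2-fold step. The 75th percentile ran from 297 to 765 between arrays. The array of replicate b in the KO-labelled 8h2h group had an unusually high background: 88.6% of its probes were marked well above background, whereas the other 17 arrays had 46.6% to 63.8%, and all 40 members lay below the mean of its replicates. Both c arrays titled 0h, which had the lowest 75th percentiles, also stood apart. On the Rescue-labelled one, 8 of 40 members lay more than 0.5 from the mean of their replicates, with a median distance of 0.23 for members and 0.33 for all genes. On the KO-labelled one, 3 members did. Results that rest on these 3 arrays are also given without them, singly or together, and leaving out all 3 together was chosen after seeing the data.

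The labels needed checking as well. On 12 arrays title and source name disagreed on the Mek inhibitor, which the source name gives to arrays titled 8h and withholds from those titled 8h2h, and groups here follow the titles. Of 5 genes that ERK is known to induce (Dusp6, Spry2, Spry4, Egr1 and Etv4), 5 were higher at 8h than at 0h in either line, and 4 were lower at 8h2h than at 8h in either line, all but Etv4. Esrrb gave 5.08, 4.74 and 5.27 on KO-labelled 0h arrays, against 4.13, 4.21 and 4.87 on Rescue-labelled ones, and in all 9 pairs of arrays that share slide and title the KO-labelled one read higher, by 0.40 to 2.52. Whether its probe lies in the deleted part is not known, so KO and Rescue are used as labels only. Of 8 stem cell markers, 8 read well above background on every array. Trophoblast markers differed between the lines and their values stand beside that comparison.

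A member was called where limma's moderated test, adjusted by Benjamini-Hochberg over all 16018 genes, gave a p below 0.05. At 8h against 0h, 11 of 40 members (27.5%) were higher in KO-labelled cells, against 11.9% of all genes, and 0 were lower, against 13.5% of all genes. In Rescue-labelled cells 8 members (20%) were higher, against 13.0% of all genes, and 0 lower, against 16.1%. The median log2 change over the 40 members was 0.18 in KO-labelled cells, from 0.13 to 0.18 on single slides, and 0.18 in Rescue-labelled cells, from 0.17 to 0.21, beside medians over all genes of -0.04 and -0.05. With only the unadjusted p under 0.05 there were 12 higher and 0 lower members in KO-labelled cells, against 16.2% and 18.9% of all genes. In Rescue-labelled cells there were 16 higher and 1 lower, against 17.1% and 21.2%.

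The 8h arrays lay wholly above the 0h arrays for 19 members in KO-labelled cells, against 20.2% of all genes, and for 18 members in Rescue-labelled cells, against 21.5% of all genes. They lay wholly below for 0 members and for 1, Polr1a, against 23% and 26.7% of all genes. Of the 11 members called in KO-labelled cells and the 8 called in Rescue-labelled cells, 5 were shared (Ddx21, Nob1, Rrp9, Wdr43 and Wdr74), which is 45.5% of the KO list and 62.5% of the Rescue list. Over all genes the shared calls were 68.8% of 1912 genes higher in KO-labelled cells and 63.1% of 2084 higher in Rescue-labelled cells. Changes were positive in both lines for 29 of 40 members and for 34.0% of all genes. Without the 3 arrays that stood apart, 13 members were higher and 1 lower (Polr1c) in KO-labelled cells, against 15.8% and 18% of all genes, and 13 were higher and 0 lower in Rescue-labelled cells, against 17.3% and 20.2% of all genes.

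**Figure D1:**
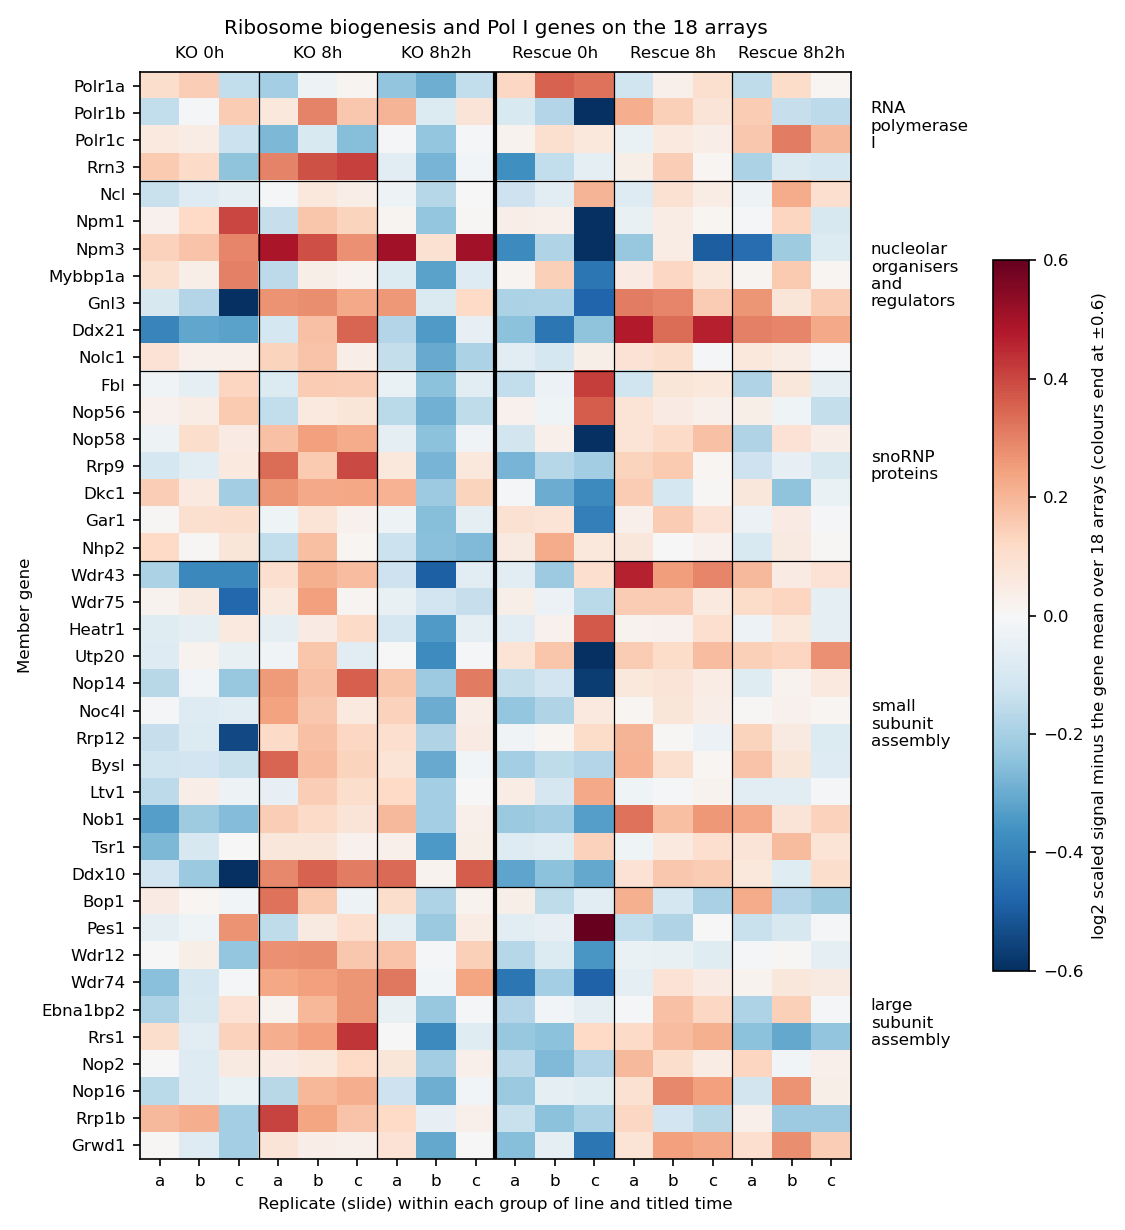
Log2 scaled signal of each member on the 18 arrays, as the difference from that gene's mean over all arrays (colour, ends at ±0.6), with arrays in columns by line, titled time and replicate and genes in rows by role. The 8h columns are mostly red and the 0h columns mixed, the b column of KO 8h2h is pale or blue in nearly every row, and the c column of Rescue 0h holds strong colours of both signs.

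Of the 3 subunits of RNA polymerase I, Polr1b had a call in time and Polr1a and Polr1c had none. Polr1a, the largest subunit, read 3.81, 3.85 and 3.55 on KO-labelled 0h arrays, 3.50, 3.67 and 3.71 at 8h and 3.46, 3.40 and 3.55 at 8h2h. On Rescue-labelled arrays it read 3.82, 4.05 and 4.03, then 3.58, 3.73 and 3.80, then 3.55, 3.81 and 3.71. The Rescue-labelled 8h arrays all lay below the 0h arrays, yet the change of -0.26 ± 0.11 (SE, adjusted p = 0.0973 in limma) did not pass. Polr1b, the other large subunit, read 3.05, 3.28 and 3.15 at 8h against 2.84, 2.98 and 3.14 at 0h in KO-labelled cells, and 3.20, 3.13 and 3.06 at 8h against 2.89, 2.81 and 2.24 at 0h in Rescue-labelled cells. It was called higher at 8h in Rescue-labelled cells (0.49 ± 0.16, adjusted p = 0.0328), where the c array at 0h was lowest by far, and without that array the change was 0.28 with an adjusted p of 0.132. At 8h2h Polr1b read 3.19, 2.90 and 3.06 in KO-labelled cells and 3.14, 2.85 and 2.83 in Rescue-labelled cells, and no other change of it was called.

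Polr1c, a subunit that RNA polymerases I and III share, had no call in time with all arrays. It read 5.03, 5.01 and 4.84 at 0h, 4.70, 4.88 and 4.71 at 8h and 4.96, 4.74 and 4.96 at 8h2h on KO-labelled arrays, and 4.99, 5.06 and 5.03, then 4.93, 5.03 and 5.01, then 5.13, 5.27 and 5.16 on Rescue-labelled arrays. Its only call with all arrays was between the lines at 8h2h (-0.30 ± 0.09, adjusted p = 0.0301), where the KO-labelled arrays lay wholly below, and it was -0.23 with an adjusted p of 0.0935 once the high-background array was left out. With all 3 arrays that stood apart left out it was called at 8h2h (-0.23, adjusted p = 0.0393), and Polr1c was then also lower in KO-labelled than in Rescue-labelled cells at 8h (-0.23, adjusted p = 0.0253) and lower at 8h than at 0h in KO-labelled cells (-0.26, adjusted p = 0.0251). In that last comparison, with all arrays, the other probe of Polr1c gave 0.02 and the brightest -0.20.

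Rrn3, the initiation factor through which growth signals are known to act on RNA polymerase I, was higher at 8h and lower again at 8h2h in KO-labelled cells. It read 4.03, 3.99 and 3.63 at 0h, 4.17, 4.25 and 4.28 at 8h and 3.81, 3.59 and 3.86 at 8h2h there, and 3.51, 3.73 and 3.82, then 3.91, 4.02 and 3.88, then 3.68, 3.79 and 3.77 on Rescue-labelled arrays. In either line the 8h arrays lay above all arrays of the other times. KO-labelled cells had a call at 8h against 0h (0.35 ± 0.12, adjusted p = 0.0417) and at 8h2h against 8h (-0.48 ± 0.12, adjusted p = 0.0237), and Rescue-labelled cells had neither (0.26 ± 0.12, adjusted p = 0.128, and -0.19 ± 0.12, adjusted p = 0.717). The lines' changes at 8h2h against 8h differed by -0.29 ± 0.17, which did not pass (adjusted p = 0.996). The first KO call was lost without the c array at 0h (0.23, adjusted p = 0.19) and the second without the high-background array (-0.40, adjusted p = 0.0868), and with all 3 arrays left out the second was called again (-0.40, adjusted p = 0.0106). In that setting limma called the Rescue-labelled change at 8h against 0h (0.32, adjusted p = 0.00977), and did not call the KO-labelled one.

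Among the nucleolar organisers, the abundant proteins had no call and a helicase and a GTPase were called. Ncl (nucleolin), which binds pre-rRNA, read 6.83, 6.88 and 6.91 at 0h, 6.95, 7.02 and 7.00 at 8h and 6.93, 6.79 and 6.96 at 8h2h on KO-labelled arrays. On Rescue-labelled arrays it read 6.83, 6.89 and 7.16, then 6.88, 7.05 and 7.00, then 6.93, 7.18 and 7.06. Npm1 (nucleophosmin), a chaperone of assembly, read 7.75, 7.84 and 8.12, then 7.58, 7.89 and 7.85, then 7.74, 7.49 and 7.73 on KO-labelled arrays. On Rescue-labelled arrays Npm1 read 7.76, 7.75 and 7.11, then 7.68, 7.77 and 7.73, then 7.72, 7.85 and 7.63, so that the c array at 0h lay lowest. Neither gene was called in any of the 12 contrasts, and the same held for Mybbp1a, a nucleolar protein known to restrain RNA polymerase I.

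Ddx21, an RNA helicase that couples RNA polymerase I transcription to processing, had the smallest adjusted p of the list. It read 3.32, 3.41 and 3.39 at 0h, 3.61, 3.89 and 4.06 at 8h and 3.54, 3.38 and 3.67 at 8h2h on KO-labelled arrays. On Rescue-labelled arrays it read 3.47, 3.28 and 3.47, then 4.19, 4.05 and 4.19, then 4.02, 4.01 and 3.94. In Rescue-labelled cells the 3 times did not overlap, with 8h on top, whereas in KO-labelled cells the 8h2h arrays overlapped both other times. At 8h against 0h it was higher in KO-labelled cells (0.48 ± 0.11, adjusted p = 0.00631), a 1.4-fold change, and in Rescue-labelled cells (0.73 ± 0.11, adjusted p = 0.000237), a 1.66-fold change. At 8h2h it was still higher than at 0h in Rescue-labelled cells (0.58 ± 0.11, adjusted p = 0.00217), and in KO-labelled cells it was lower than in Rescue-labelled cells at that time (-0.46 ± 0.11, adjusted p = 0.0102). The difference between the lines in the change at 8h2h against 0h was -0.43 ± 0.16 and did not pass (adjusted p = 0.249).

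Gnl3 (nucleostemin), a GTPase of the nucleolus abundant in stem cells, read 3.78, 3.79 and 3.74 at 8h against 3.42, 3.34 and 2.33 at 0h in KO-labelled cells. It read 3.82, 3.81 and 3.67 at 8h against 3.32, 3.33 and 3.04 at 0h in Rescue-labelled cells. Neither line's 8h arrays overlapped its 0h arrays. The KO-labelled change was called (0.74 ± 0.21, adjusted p = 0.0198), and it was 0.39 without the outlying 2.33 and the 2 other arrays that stood apart (adjusted p = 0.00328). In that setting the Rescue-labelled change was called as well (0.44 ± 0.08, adjusted p = 0.00146).

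Nolc1, a chaperone of snoRNPs, had no call at 8h and was lower at 8h2h in KO-labelled cells. It read 4.94, 4.88 and 4.88 at 0h, 4.98, 5.02 and 4.89 at 8h and 4.70, 4.54 and 4.66 at 8h2h there, and 4.78, 4.74 and 4.88, then 4.94, 4.95 and 4.84, then 4.91, 4.89 and 4.84 on Rescue-labelled arrays. The KO-labelled 8h2h arrays lay below all the others. Calls were made against 8h (-0.33 ± 0.08, adjusted p = 0.0221), against 0h (-0.26 ± 0.08, adjusted p = 0.0284) and against Rescue-labelled 8h2h arrays (-0.25 ± 0.08, adjusted p = 0.0386). Without the high-background array these were -0.28, -0.22 and -0.20, with adjusted p values of 0.0783, 0.0922 and 0.104. The call against 0h was also lost without the KO-labelled c array at 0h (adjusted p = 0.0515) and without all 3 arrays that stood apart (adjusted p = 0.0502). In that last setting the calls against 8h (-0.28, adjusted p = 0.0259) and against Rescue-labelled 8h2h arrays (-0.20, adjusted p = 0.0428) passed. The lines' changes at 8h2h against 0h differed by -0.34 ± 0.11, which did not pass (adjusted p = 0.163).

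Npm3, a relative of nucleophosmin, was called between the lines at each time and not in time. It read 2.42, 2.46 and 2.57 on KO-labelled 0h arrays, against 1.90, 2.10 and 1.44 on Rescue-labelled ones. At 8h it read 2.77, 2.67 and 2.56 on KO-labelled arrays, against 2.06, 2.33 and 1.79 on Rescue-labelled ones, and at 8h2h 2.79, 2.37 and 2.79, against 1.83, 2.07 and 2.20. All 9 KO-labelled values lay above all 9 Rescue-labelled values. The differences were 0.67 ± 0.18 at 0h (adjusted p = 0.0184), 0.61 ± 0.18 at 8h (adjusted p = 0.0264) and 0.61 ± 0.18 at 8h2h (adjusted p = 0.0254), about 1.53-fold to 1.59-fold, and without the Rescue-labelled c array the one at 0h was 0.48 (adjusted p = 0.077). It was 0.63 without the KO-labelled c array (adjusted p = 0.0672) and 0.44 without all 3 arrays that stood apart (adjusted p = 0.0888).

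The core snoRNP proteins Fbl, Nop56 and Dkc1 had no call. Fbl (fibrillarin), the methyltransferase of box C/D snoRNPs, read 6.97, 6.93 and 7.12 at 0h, 6.91, 7.14 and 7.14 at 8h and 6.95, 6.75 and 6.93 at 8h2h on KO-labelled arrays. On Rescue-labelled arrays it read 6.84, 6.96 and 7.41, then 6.87, 7.06 and 7.05, then 6.81, 7.06 and 6.93. All time groups of Fbl overlapped within a line. Nop56, another core protein of these particles, read 6.25, 6.27 and 6.38, then 6.07, 6.28 and 6.30, then 6.06, 5.94 and 6.07 on KO-labelled arrays, and 6.25, 6.20 and 6.59, then 6.31, 6.27 and 6.25, then 6.26, 6.20 and 6.08 on Rescue-labelled arrays. Its KO-labelled 8h2h arrays lay below the 8h and 0h arrays, and the change against 0h, -0.28 ± 0.11, did not pass (adjusted p = 0.0815). Dkc1 (dyskerin), the pseudouridine synthase of box H/ACA snoRNPs, read 2.15, 2.06 and 1.79, then 2.27, 2.23 and 2.23, then 2.21, 1.78 and 2.14 on KO-labelled arrays. On Rescue-labelled arrays Dkc1 read 1.99, 1.70 and 1.62, then 2.16, 1.90 and 2.01, then 2.07, 1.76 and 1.96. It was 0.24 ± 0.14 and 0.25 ± 0.14 above 0h at 8h in KO-labelled and Rescue-labelled cells, and neither passed (adjusted p = 0.255 and 0.22).

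The snoRNP proteins Rrp9 and Nhp2 were called in time. Rrp9, which belongs to the U3 particle that starts small subunit processing, read 3.94, 3.76 and 4.00 at 8h against 3.50, 3.54 and 3.67 at 0h in KO-labelled cells. In Rescue-labelled cells it read 3.74, 3.76 and 3.62 at 8h against 3.33, 3.44 and 3.40 at 0h. The times did not overlap in either line, and the changes were 0.33 ± 0.10 (adjusted p = 0.0296) and 0.32 ± 0.10 (adjusted p = 0.0333, then 0.0544 without the Rescue-labelled c array at 0h and 0.00995 without all 3 arrays that stood apart). Nhp2, a core protein of box H/ACA particles, read 6.81, 6.68 and 6.67 at 8h2h against 7.06, 6.94 and 7.01 at 0h in KO-labelled cells. This was a change of -0.28 ± 0.09 (adjusted p = 0.0464), lost without the high-background array (-0.26, adjusted p = 0.101), without the c array at 0h (adjusted p = 0.0982) and without all 3 arrays that stood apart (adjusted p = 0.118). Nop58 and Gar1 had no call.

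Of the 12 small subunit assembly factors, 5 were higher at 8h against 0h in KO-labelled cells, where 11.9% of all genes were, and 2 in Rescue-labelled cells, where 13.0% were. The median change over the 12 was 0.29 in KO-labelled and 0.23 in Rescue-labelled cells. Wdr43, a factor of the first complex on the nascent pre-rRNA, read 3.88, 3.99 and 3.96 at 8h against 3.59, 3.39 and 3.39 at 0h in KO-labelled cells, and 4.24, 4.03 and 4.07 against 3.71, 3.56 and 3.88 in Rescue-labelled cells. Nob1, the nuclease that makes the final cut of the small subunit rRNA, read 3.08, 3.05 and 3.01 at 8h against 2.60, 2.72 and 2.67 at 0h in KO-labelled cells, and 3.26, 3.11 and 3.19 against 2.71, 2.72 and 2.60 in Rescue-labelled cells. Both genes separated the times without overlap in either line. Wdr43 was higher by 0.49 ± 0.12 in KO-labelled cells (adjusted p = 0.00835) and by 0.40 ± 0.12 in Rescue-labelled cells (adjusted p = 0.0237), and Nob1 by 0.38 ± 0.10 (adjusted p = 0.011) and 0.51 ± 0.10 (adjusted p = 0.00135).

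Ddx10, an RNA helicase of the small subunit processome, had the largest change of any member with all arrays, one that included an outlying 0h array. It read 1.86, 1.93 and 1.88 at 8h against 1.46, 1.35 and 0.62 at 0h in KO-labelled cells, and 1.66, 1.74 and 1.73 against 1.26, 1.33 and 1.27 in Rescue-labelled cells. No 8h array overlapped the 0h arrays of its line. The KO-labelled change was 0.75 ± 0.17 (adjusted p = 0.00453), or 1.68-fold, and 0.48 without the 3 arrays that stood apart (adjusted p = 0.000466), a setting in which the Rescue-labelled change of 0.42 was also called (adjusted p = 0.0011). In that setting Ddx21 changed more, by 0.77 at 8h against 0h in Rescue-labelled cells (adjusted p = 0.000471). At 8h2h Ddx10 read 1.92, 1.59 and 1.94 in KO-labelled cells, 0.67 ± 0.17 above 0h (adjusted p = 0.011), and 1.64, 1.50 and 1.68 in Rescue-labelled cells. Without the 3 arrays that stood apart, Ddx10 at 8h2h was 0.52 above 0h in KO-labelled cells (adjusted p = 0.000953 in limma). The Rescue-labelled change was then 0.31 (adjusted p = 0.00847).

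Rrp12, which takes part in export of the small subunit, and Bysl (bystin), a late assembly factor, were called in KO-labelled cells. Rrp12 read 4.57, 4.63 and 4.59 at 8h against 4.32, 4.38 and 3.92 at 0h there, and Bysl 4.64, 4.47 and 4.42 against 4.17, 4.17 and 4.15. In Rescue-labelled cells Rrp12 read 4.66, 4.47 and 4.42 at 8h against 4.44, 4.47 and 4.57 at 0h, which overlap, and Bysl 4.50, 4.39 and 4.30 against 4.09, 4.14 and 4.11, which do not. The KO-labelled changes were 0.39 ± 0.12 (adjusted p = 0.0316) for Rrp12 and 0.35 ± 0.11 (adjusted p = 0.0291) for Bysl. The other probe of Rrp12 gave -0.01 in that comparison. Without the KO-labelled c array at 0h the changes by the brightest probes were 0.25 and 0.34, with adjusted p values of 0.147 and 0.0702. Without all 3 arrays that stood apart both were called, Rrp12 at 0.25 (adjusted p = 0.0492) and Bysl at 0.34 (adjusted p = 0.0184), and so was the Rescue-labelled change of Bysl (0.28, adjusted p = 0.039). The lines' changes in Rrp12 differed by 0.37 ± 0.18 and did not pass (adjusted p = 0.43). By the brightest probe, Wdr75, Heatr1, Utp20, Nop14, Noc4l, Ltv1 and Tsr1 had no call in any contrast with all arrays. Without the 3 arrays Nop14 was higher at 8h against 0h (0.35, adjusted p = 0.00628) and at 8h2h against 0h (0.33, adjusted p = 0.0205) in KO-labelled cells. In that setting Noc4l was higher than at 0h in Rescue-labelled cells at 8h (0.25, adjusted p = 0.0184 in limma) and at 8h2h (0.22, adjusted p = 0.0373). Tsr1 was then higher at 8h against 0h in KO-labelled cells (0.24, adjusted p = 0.0288).

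Among the 10 large subunit factors, 2 were higher at 8h against 0h in KO-labelled cells and 3 in Rescue-labelled cells, against the same 11.9% and 13.0% of all genes. Wdr74, which acts in nuclear maturation of the large subunit, read 3.98, 3.99 and 4.01 at 8h against 3.50, 3.64 and 3.73 at 0h in KO-labelled cells, and 3.69, 3.83 and 3.80 against 3.31, 3.54 and 3.26 in Rescue-labelled cells. It was higher by 0.37 ± 0.11 (adjusted p = 0.0183) and 0.40 ± 0.11 (adjusted p = 0.0102), with no overlap in either line. Wdr12, a partner of Pes1 and Bop1 in the PeBoW complex, read 3.82, 3.82 and 3.70 at 8h against 3.54, 3.58 and 3.31 at 0h in KO-labelled cells, a change of 0.30 ± 0.10 (adjusted p = 0.0318). It was lost without the c array at 0h (adjusted p = 0.137) and called at 0.22 without all 3 arrays that stood apart (adjusted p = 0.024). The same 8h arrays lay above 3.50, 3.50 and 3.47 on Rescue-labelled 8h arrays, a difference of 0.29 ± 0.10 (adjusted p = 0.0455). That call was lost in 18 of 29 alternative settings, with adjusted p values of 0.00286 to 0.547 and a difference of 0.21 to 0.41.

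Nop2, whose promoter is printed above, read 6.02, 5.93 and 5.86 at 8h against 5.67, 5.56 and 5.65 at 0h in Rescue-labelled cells, and 5.87, 5.89 and 5.94 against 5.82, 5.74 and 5.88 in KO-labelled cells. Grwd1, a chaperone that loads a ribosomal protein, read 3.44, 3.60 and 3.59 against 3.10, 3.30 and 2.92 in Rescue-labelled cells, and 3.44, 3.40 and 3.39 against 3.36, 3.28 and 3.15 in KO-labelled cells. The Rescue-labelled times did not overlap for either gene, while the KO-labelled times overlapped for Nop2. Their Rescue-labelled changes were 0.31 ± 0.09 (adjusted p = 0.018) and 0.43 ± 0.12 (adjusted p = 0.0131), and without the c array at 0h that of Grwd1 was 0.34 (adjusted p = 0.0519), and it was called without all 3 arrays that stood apart (adjusted p = 0.00958). Bop1, the other partner in the PeBoW complex, read 4.65, 4.49 and 4.30 at 8h against 4.38, 4.34 and 4.31 at 0h in KO-labelled cells and 4.54, 4.22 and 4.13 against 4.36, 4.18 and 4.26 in Rescue-labelled cells, which overlap. At 8h2h Bop1 read 4.44, 4.15 and 4.35 in KO-labelled cells and 4.55, 4.15 and 4.12 in Rescue-labelled cells. Pes1, Ebna1bp2, Nop16 and Rrp1b had no call with all arrays either, by their brightest probes.

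**Figure D2:**
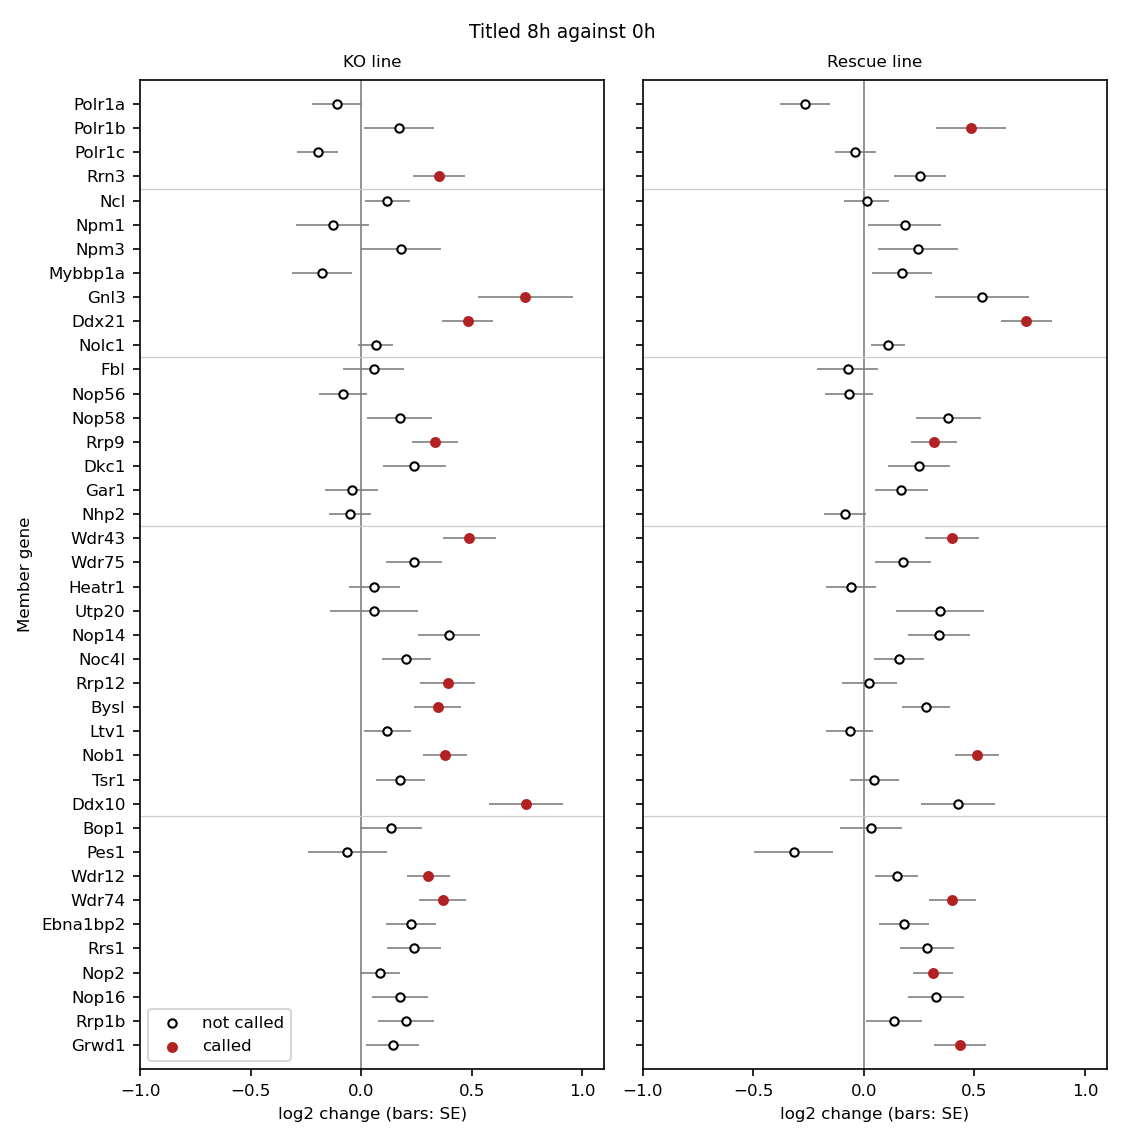
Log2 change at titled 8h against 0h for each member (points, bars are the SE) in the KO line on the left and the Rescue line on the right, with filled points for called members. In either panel most points lie right of 0 and none beyond 1, with 11 filled points in the KO line and 8 in the Rescue line.

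At 8h2h against 8h, Myc itself fell and few members were called. Myc read 0.67, 0.48 and 0.27 at 0h, 2.94, 2.79 and 2.85 at 8h and -1.68, -1.14 and -1.39 at 8h2h on KO-labelled arrays. On Rescue-labelled arrays it read 0.47, 0.31 and 0.63, then 2.83, 2.72 and 2.52, then -0.94, -0.98 and -0.97. No times overlapped, and the 8h2h arrays were lowest in either line. By the brightest probe, at 8h Myc was 5.24-fold above 0h in KO-labelled cells (2.39 ± 0.14, adjusted p = 3.45e-08) and 4.66-fold in Rescue-labelled cells (2.22 ± 0.14, adjusted p = 5.7e-08). At 8h2h against 8h it was 19.2-fold lower in KO-labelled cells (-4.26 ± 0.14, adjusted p = 3.36e-10) and 12.6-fold lower in Rescue-labelled cells (-3.65 ± 0.14, adjusted p = 2.8e-09). With the mean of its probes Myc had the same signs and calls in these comparisons.

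The other MYC genes moved otherwise. Mycl read -3.27, -2.79 and -3.79 at 8h against -0.68, -1.25 and -0.91 at 0h in KO-labelled cells, and -3.92, -3.76 and -3.39 against -1.58, -1.69 and -1.10 in Rescue-labelled cells, so that it fell by 2.34 ± 0.23 (adjusted p = 4.53e-06) and by 2.23 ± 0.23 (adjusted p = 6.27e-06). Mycn read 3.62, 5.17 and 3.49 at 8h against 4.34, 5.22 and 4.47 at 0h in KO-labelled cells, where slide b lay apart, and 5.22, 5.12 and 5.13 against 5.65, 5.61 and 5.74 in Rescue-labelled cells. No change of Mycn in time was called.

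Of the 40 members, 0 were higher and 3 lower at 8h2h than at 8h in KO-labelled cells, where 4.15% of all genes were higher and 3.21% lower. In Rescue-labelled cells 0 were higher and 0 lower, where 1.42% of all genes were higher and 1.47% lower, and at an unadjusted p under 0.05 there was 1 higher and 1 lower, against 6.21% and 4.86% of all genes. With the slide as a block 0 were higher and 1, Rrs1, lower there (-0.43, adjusted p = 0.0348 in limma), against 1.85% and 1.77%. The median change was -0.17 in KO-labelled cells, with -0.02, -0.37 and -0.10 on slides a, b and c, and -0.06 in Rescue-labelled cells, from -0.05 to -0.04 on single slides. The b value is that of the high-background array, without which 0 members were called in KO-labelled cells. With all 3 arrays that stood apart left out, 3 were again lower, against 4.67% of all genes, and the median was -0.07.

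The 3 called members were Rrn3 and Nolc1, given above, and Rrs1, which helps to load the small ribosomal RNA of the large subunit. Rrs1 read 3.13, 2.74 and 3.05 at 8h2h against 3.34, 3.37 and 3.55 at 8h in KO-labelled cells, and 2.88, 2.82 and 2.89 against 3.24, 3.31 and 3.34 in Rescue-labelled cells. The times did not overlap in either line. The changes were -0.45 ± 0.12 (adjusted p = 0.0389) and -0.43 ± 0.12, and the second passed in limma without the 3 arrays (adjusted p = 0.00507) but not with them (adjusted p = 0.087). Without the 3 arrays Rrs1 was also called higher at 8h against 0h, in KO-labelled (0.28, adjusted p = 0.0246) and Rescue-labelled cells (0.41, adjusted p = 0.00281). The 8h2h arrays lay wholly below the 8h arrays for 14 members in KO-labelled cells, against 11.9% of all genes, and for 5 in Rescue-labelled cells, against 13.1%. The Rescue-labelled 5 were Rrn3, Ddx21, Rrp9, Wdr43 and Rrs1.

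**Figure D3:**
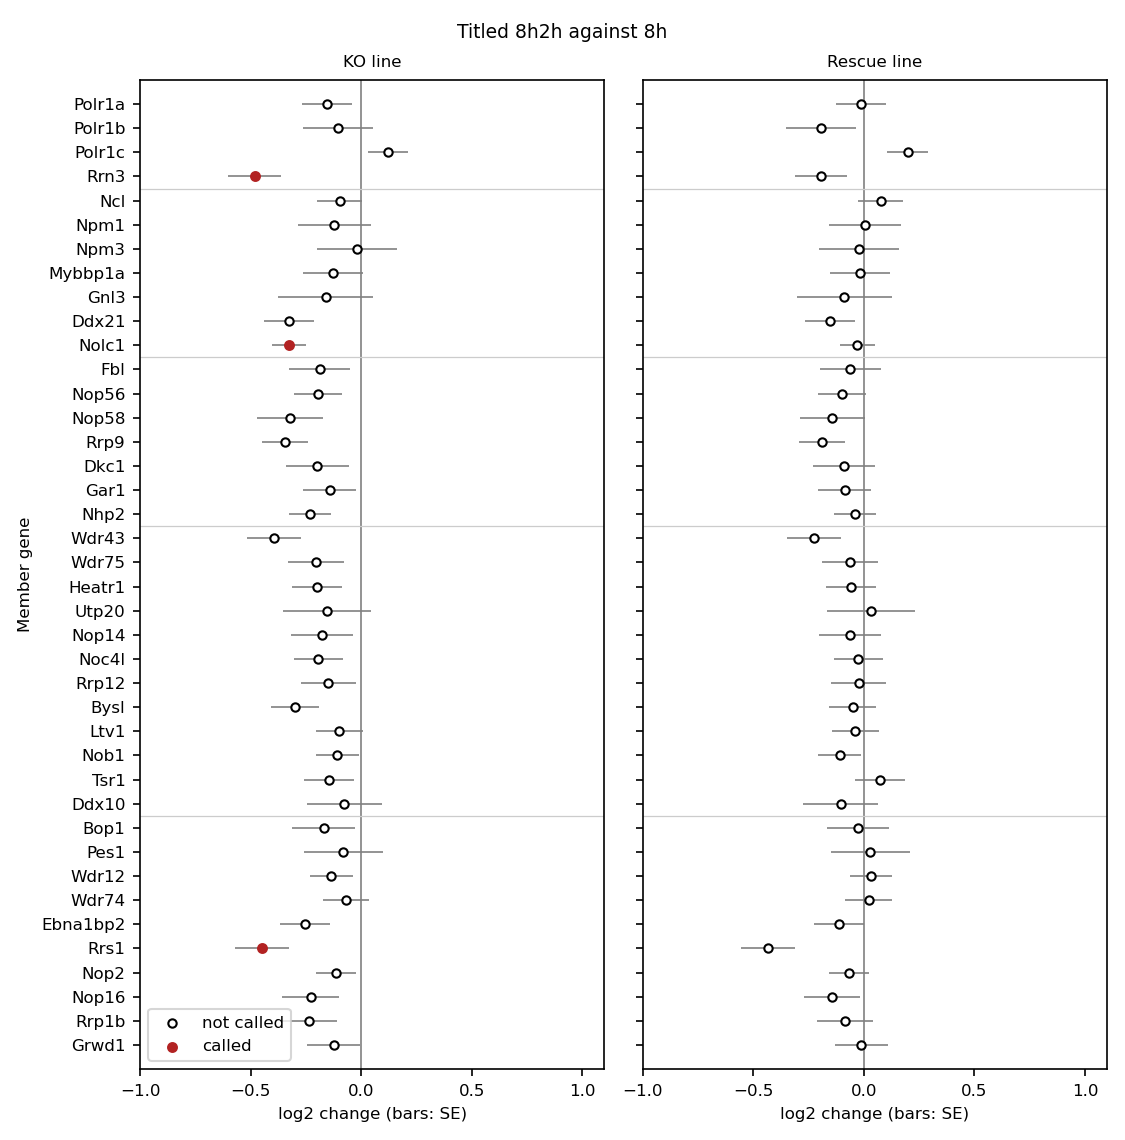
Log2 change at titled 8h2h against 8h for each member (points, bars are the SE), KO line on the left and Rescue line on the right, with filled points for called members. The axis is that of the plot at 8h against 0h, most points lie between -0.5 and 0.2, and the 3 filled points are Rrn3, Nolc1 and Rrs1 in the KO line.

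**Figure D4:**
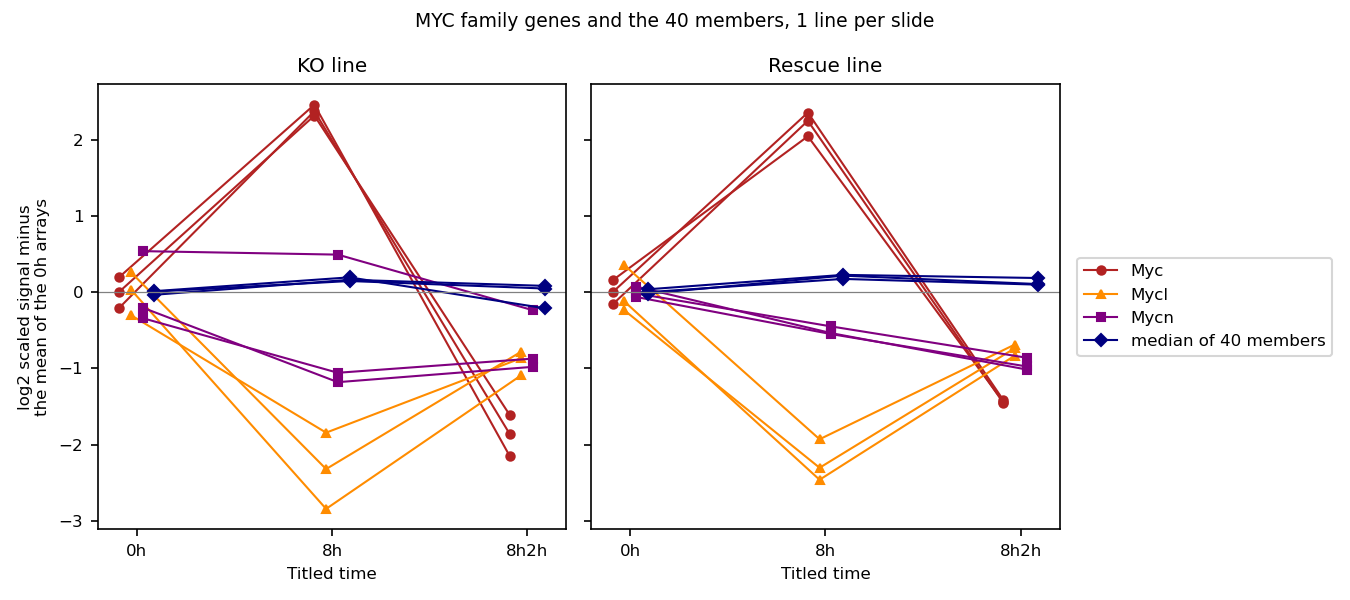
Log2 scaled signal of Myc, Mycl, Mycn and the median of the 40 members at each titled time, minus the mean of the 0h arrays of the same line, with 1 line per slide. Myc spans over 3 log2 units between 8h and 8h2h in either line, while the median of the members stays within 0.5 of its 0h level.

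Set against 0h, with all arrays 1 member was higher at 8h2h in KO-labelled cells and 2 were lower, where 11% of all genes were higher and 11.4% lower. In Rescue-labelled cells 4 were higher and 0 lower, where 10.5% were higher and 10.8% lower. The medians were -0.02 and 0.14. The higher ones in Rescue-labelled cells were Ddx21, Nob1, Wdr74 and Grwd1, and in KO-labelled cells Ddx10 was higher and Nolc1 and Nhp2 lower. Nob1 read 3.12, 2.73 and 2.96 at 8h2h in KO-labelled cells and 3.16, 3.01 and 3.07 in Rescue-labelled cells, where it was 0.40 ± 0.10 above 0h (adjusted p = 0.00986). Wdr74 read 4.06, 3.73 and 3.99 in KO-labelled cells and 3.77, 3.82 and 3.80 in Rescue-labelled cells, 0.42 ± 0.11 above 0h (adjusted p = 0.0101). Grwd1 read 3.44, 3.05 and 3.36 in KO-labelled cells and 3.46, 3.63 and 3.50 in Rescue-labelled cells, 0.42 ± 0.12 above 0h (adjusted p = 0.0203), a call lost without the Rescue-labelled c array at 0h (0.33, adjusted p = 0.0744) and made without all 3 arrays that stood apart (adjusted p = 0.015). The KO-labelled b array was the lowest of its group for all 3 genes. Without the 3 arrays that stood apart, 5 members were higher and 0 lower in KO-labelled cells, against 12.2% and 12.6% of all genes, and 8 were higher and 0 lower in Rescue-labelled cells, against 14.5% and 15.2%. The KO-labelled 5 were Ddx10, Gnl3, Nop14, Nob1 (0.38, adjusted p = 0.00886 in limma) and Wdr74 (0.45, adjusted p = 0.00466). In Rescue-labelled cells Nob1 (0.36, adjusted p = 0.00592) and Wdr74 (0.37, adjusted p = 0.00704) were called in that setting as well. With the slide as a block, 3 were higher (Ddx10, Gnl3 and Nob1) and 2 lower (Nolc1 and Nhp2) in KO-labelled cells, against 12.9% and 14.1%.

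Between the lines, with all arrays, at 0h 1 member was higher and 0 lower in KO-labelled than in Rescue-labelled cells, where 7.1% of all genes were higher and 11.2% lower, and the median difference was 0.06. At 8h 2 were higher and 0 lower, where 9.17% of all genes were higher and 12.3% lower, with a median of 0.05. At 8h2h 1 was higher and 3 lower, where 9.6% and 12.2% of all genes were, with a median of -0.08 and slide medians of -0.00, -0.29 and -0.00. The higher member was Npm3 at every time, joined by Wdr12 at 8h, and the lower ones at 8h2h were Ddx21, Polr1c and Nolc1. Without the 3 arrays that stood apart more members were called. At 0h 2 were then higher and 0 lower, against 7.61% and 11.8% of all genes, namely Rrn3 (0.39 ± 0.09, adjusted p = 0.0112) and Rrp1b (0.39, adjusted p = 0.0465). At 8h 5 were higher and 1 lower, against 16.7% and 20.6%. The 5 were Rrn3 (0.30 ± 0.07, adjusted p = 0.00845), Rrp1b (0.32, adjusted p = 0.0271), Wdr74 (0.22, adjusted p = 0.0393), Npm3 and Wdr12, and the lower one was Polr1c. At 8h2h 3 were higher and 3 lower, against 15.6% and 20.3%, the higher ones being Npm3 (0.75, adjusted p = 0.00287), Ddx10 (0.32, adjusted p = 0.00635) and Nop14 (0.24, adjusted p = 0.0432), and the lower ones Ddx21 (-0.39, adjusted p = 0.0271), Nolc1 and Polr1c. Of the 40 members, 39 at 0h, 40 at 8h and 39 at 8h2h had a 95% interval within a 2-fold difference in either direction, compared with 64.3%, 64.1% and 63% of all genes, in the fit of all arrays.

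The lines held unequal levels of other cell types' markers. Of 7 trophoblast markers tested, 0 were higher and 7 lower in KO-labelled cells at 0h, with a summed scaled signal of 12.9 to 21.3 on KO-labelled arrays against 159 to 184 on Rescue-labelled ones, and Cdx2, Hand1 and Plac1 were well above background on no KO-labelled 0h array. In KO-labelled cells that sum was 44.1 to 56.3 at 8h against 12.9 to 21.3 at 0h, and in Rescue-labelled cells 255 to 266 against 159 to 184. The sum of 5 fibroblast markers was 14.8 to 21.2 at 8h against 1.94 to 2.49 at 0h in KO-labelled cells, and 6.33 to 7.48 against 1.9 to 2.23 in Rescue-labelled cells. Only 2 of the 5 were well above background on all 3 KO-labelled 8h arrays, and Col3a1 and Dcn were on none. On the Rescue-labelled 8h arrays 3 of the 5 were. The sum of the 7 primitive endoderm markers lay between 0.355 and 2.23 in all groups. The part of these markers in the members' changes was not tested, and in such bulk samples fewer cells of a type and less RNA per cell cannot be told apart.

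Whether the lines responded differently was tested directly. No member was called for a line difference in the change at 8h against 0h, at 8h2h against 8h or at 8h2h against 0h, where 2.27%, 0.0562% and 2.02% of all genes were called in limma. At an unadjusted p under 0.05 there were 0, 1 and 4 members, against 12.2%, 2.77% and 13.7% of all genes, and every alternative setting also gave 0 calls. The median line difference over members was 0.04, -0.13 and -0.11, and the last 2 were -0.04 and -0.04 without the 3 arrays that stood apart. The 95% interval of the difference lay within 2-fold in either direction for 40, 40 and 39 members, compared with 58.8%, 66.2% and 58.1% of all genes.

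Members with and without the E-box CACGTG in their promoter were also counted apart. At 8h against 0h in KO-labelled cells 2 of the 9 genes with the motif were higher (Rrn3 and Wdr43) and 8 of the 26 without it, with medians of 0.12 and 0.20. In Rescue-labelled cells 3 of 9 with it were higher (Wdr43, Nop2 and Grwd1) and 5 of 26 without it, with medians of 0.26 and 0.21, again beside 11.9% and 13.0% of all genes in the KO and Rescue lines. A match describes the letters of the window and is not evidence of binding, and the difference between the sets was not tested.

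Other genes of the pathway, listed with earlier results known, were read in the same way. Of 85 further ribosome assembly factors, 16 (18.8%) were higher and 0 lower at 8h against 0h in KO-labelled cells, and 19 (22.4%) were higher and 0 lower in Rescue-labelled cells, against 11.9% and 13.0% of all genes, with medians of 0.17 and 0.15. Wdr36, a processome factor, was higher by 0.87 ± 0.14 (adjusted p = 0.000261) and 0.60 ± 0.14 (adjusted p = 0.00383), and Noc3l, a large subunit factor, by 0.54 ± 0.14 (adjusted p = 0.0107) and 0.83 ± 0.14 (adjusted p = 0.000487). At 8h2h against 8h, 0 were higher and 5 lower in KO-labelled cells and 0 higher and 2 lower in Rescue-labelled cells, with medians of -0.19 and -0.07. Over all genes 4.15% were higher and 3.21% lower in KO-labelled cells, and 1.42% and 1.47% in Rescue-labelled cells. The KO-labelled count includes the high-background array. Imp3, a protein of the U3 particle, was among the lower factors in either line. It read 5.09, 5.19 and 5.24 at 8h and 4.75, 4.42 and 4.71 at 8h2h on KO-labelled arrays after 4.53, 4.45 and 4.59 at 0h, and 5.06, 4.97 and 4.99 and then 4.56, 4.57 and 4.53 on Rescue-labelled arrays after 4.58, 4.56 and 4.62. Its 8h arrays lay above all arrays of the other times, with changes of 0.65 ± 0.09 (adjusted p = 0.000106) and 0.42 ± 0.09 (adjusted p = 0.00315) at 8h against 0h, and of -0.55 ± 0.09 (adjusted p = 0.00218) and -0.45 ± 0.09 (adjusted p = 0.0148) at 8h2h against 8h.

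Ribosomal protein genes had no call. Of 76 cytosolic ribosomal protein genes, which encode the protein mass of the ribosome, 0 were called in any of the 12 contrasts in limma, and at an unadjusted p under 0.05 there were 0 at 8h against 0h in either line. Their medians at 8h against 0h were -0.03 in KO-labelled and -0.08 in Rescue-labelled cells. Of 12 further genes of the RNA polymerase I machinery, 0 were higher and 1 lower in KO-labelled cells (Taf1b, a promoter selectivity factor, -0.43 ± 0.11, adjusted p = 0.0114), and 1 was higher and 0 lower in Rescue-labelled cells (Taf1d, of the same complex, 0.54 ± 0.15, adjusted p = 0.015). Of 13 RNA polymerase III genes, 3 were higher and 0 lower in KO-labelled cells and 1 higher and 2 lower in Rescue-labelled cells, with Polr3a, the largest subunit, higher in either line (0.52 ± 0.15, adjusted p = 0.0224, and 0.71 ± 0.15, adjusted p = 0.00285). Of 7 RNA polymerase II genes, 0 were called in KO-labelled cells and 1 was lower in Rescue-labelled cells (Polr2a, the largest subunit, -0.55 ± 0.16, adjusted p = 0.0174). Of 22 other MYC-linked growth genes, 1 was higher in KO-labelled cells and 2 in Rescue-labelled cells, and 0 were lower, with the translation inhibitor Eif4ebp1 higher in either line (0.47 ± 0.13, adjusted p = 0.019, and 0.43 ± 0.13, adjusted p = 0.0281). Over all genes, 11.9% were higher and 13.5% lower in KO-labelled cells at 8h against 0h. In Rescue-labelled cells these shares were 13% and 16.1%.

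**Figure D5:**
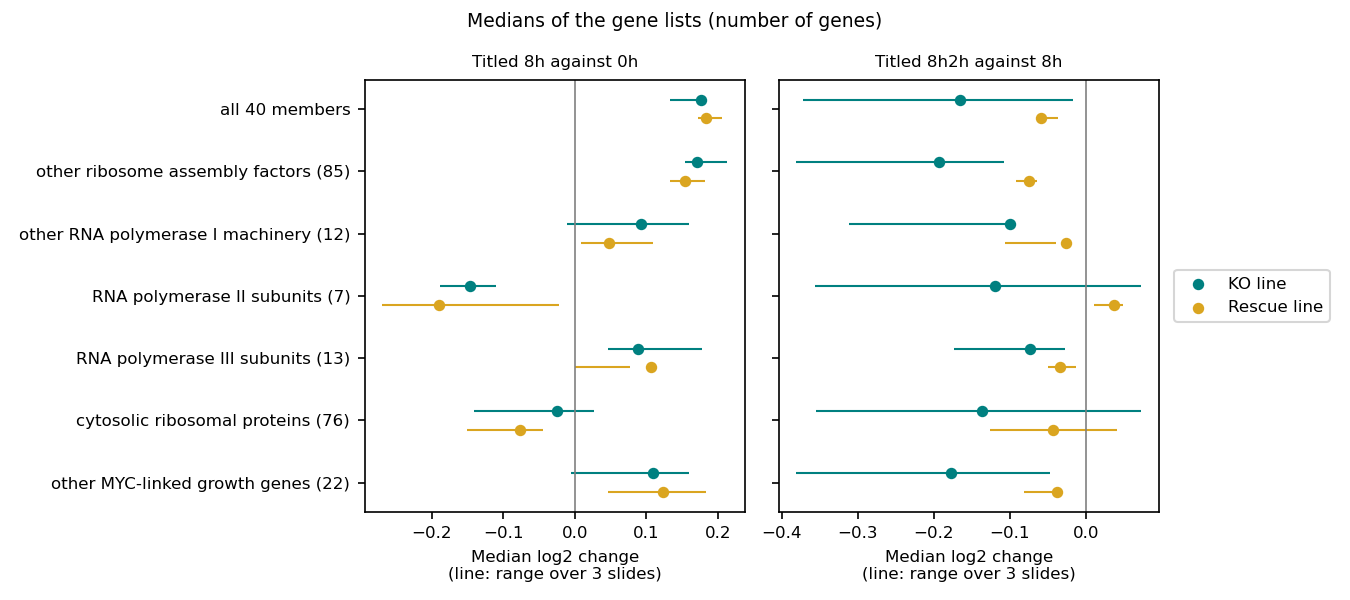
Median log2 change of the 40 members and of 6 other gene lists (points, lines are the range of the medians on the 3 slides, which need not span the point), at titled 8h against 0h on the left and 8h2h against 8h on the right, with the KO line above the Rescue line in each pair. On the left, the members and the 85 other assembly factors lie between 0.15 and 0.18 in either line and the ribosomal proteins and RNA polymerase II genes lie below 0.

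Between the lines, other lists held single large differences. Polr3gl, a variant subunit of RNA polymerase III, read 1.13, 0.43 and 1.03 on KO-labelled 0h arrays against -0.90, -0.81 and -0.89 on Rescue-labelled ones, which do not overlap, and was higher by 1.73 ± 0.19 (adjusted p = 2.97e-05). Among the further RNA polymerase I genes, the subunit gene that the transcript table names Znrd1 was higher by 0.62 ± 0.13 (adjusted p = 0.00344) and the topoisomerase Top1 lower (-0.38 ± 0.12, adjusted p = 0.0496) at 0h, and both kept these signs and calls at 8h and 8h2h. Among the 85 further assembly factors, 3 were higher and 1 lower at 0h, where 7.1% of all genes were higher and 11.2% lower.

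Of the 40 members, 20 had more than 1 probe. Over these the median range of a gene's log2 changes between probes was 0.19 at 8h against 0h in KO-labelled cells, 0.24 in Rescue-labelled cells and 0.27 between the lines at 0h, and 0.06 to 0.11 in the comparisons without 0h arrays. The widest was 0.74, for Ncl at 8h against 0h in Rescue-labelled cells, where its brightest probe gave 0.01 and the other 0.75 (not called). No gene had probes called in opposite directions. Tested over all kept probes, 1 other probe of Rrp1b was called between the lines at each time, higher in KO-labelled cells. At 8h against 0h 1 other probe of Ebna1bp2 was called higher in KO-labelled (0.52) and Rescue-labelled cells (0.42). For Wdr75 1 other probe was called higher at 8h against 0h in Rescue-labelled cells. The other probe of Wdr43 was called lower in KO-labelled than in Rescue-labelled cells at 8h2h (-0.31, brightest -0.34). It was also called higher at 8h2h against 0h in Rescue-labelled cells (0.40, brightest 0.17). The other probe of Wdr74 was called higher at 8h2h against 0h in KO-labelled cells (0.47, brightest 0.30). By the brightest probe, over all 9 comparisons of groups with all arrays, 21 of the 40 members were never called. Among them were Polr1a, Ncl, Npm1, Fbl, Nop56, Dkc1 and Bop1. By that probe no member changed by more than 0.75 on the log2 scale.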

How the data were processed

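RNA of 18 samples (100 ng each, Low Input Quick Amp labelling per the labels' protocols) was read on 18 one-colour arrays. The deposited intensity values are processed signals made by Feature Extraction 12.0.1.1, per the file headers, which subtracts background. The deposited flags (above background, saturated, outlier) are per spot, per the file headers. The labels name Cy5 while the file headers give 1 green channel. The authors' deposited table held the same intensity values on all 18 arrays.

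From there, log2 of the processed signal minus the array's log2 75th percentile was taken, with no pseudocount. Spots of a probe were averaged, outlier spots left out, a probe was kept if some group had it well above background on each of its arrays, and a gene was read from its brightest probe. limma 3.58.1 in R 4.3.3 fitted 6 group means to all 18 arrays, with 12 contrasts and Benjamini-Hochberg adjustment over 16018 genes (called below 0.05). The fit was also tried on simulated arrays with noise independent between them, which does not test the effect of shared slides. The number of arrays limits the precision. Each slide held all 6 groups, each at a fixed place, so the effects of place and group cannot be separated. Each letter is 1 slide, a batch shared by the 6 groups. Same-slide deviations correlated above 0.1 in 28 of 45 pairs of groups (median r 0.14, -0.06 to 0.73). The fit without a slide block is the main one, as designed, and the blocked value stands beside each count it moved by over 1.5 times.

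The members, the other lists and the naming rule were chosen with earlier results of these data known. Values by array were given for 10 members whatever they showed, and in each contrast for up to 4 called members with the highest and 4 with the lowest change; of other lists, up to 3 called genes per contrast could be named. The alternatives were normexp background correction, quantile normalization, no scaling, other filters, the mean of probes, a slide block, fewer arrays, a trended prior, and leaving out each array.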

Additional observations from a re-analysis of the deposited data

How the results depend on the processing

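Counts below are called members out of 40 and, where the settings moved them, replace 8 and 11 higher at 8h against 0h in Rescue-labelled and KO-labelled cells, 3 at 8h2h against 8h in KO-labelled cells, and 3 and 4 at 8h2h against 0h in KO-labelled and Rescue-labelled cells. Shares of all genes stand above for the fit as reported, the slide block and the fit without the 3 arrays that stood apart. For the other settings, single arrays left out included, no share is given. Their counts show how calls moved and are not a result about the members. Normexp background correction left 1 between the lines at 8h and 1 (lower) at 8h2h, 2 (both higher) at 8h2h against 0h in KO-labelled cells, in place of 1 higher and 2 lower, and 0 at 8h2h against 8h in KO-labelled cells. Quantile normalization gave 6, all higher, at 8h2h against 0h and 0 at 8h2h against 8h in KO-labelled cells, and 1 higher and 2 lower between the lines at 8h (Npm3 and Wdr12 higher in the fit as reported). No filter on dim probes gave 6 at 8h against 0h, 1 at 8h2h against 8h and 1 at 8h2h against 0h in KO-labelled cells, and 1 between the lines at 8h. The mean of a gene's probes gave 2 between the lines at 0h. Fitting only the arrays compared gave 2 at 8h against 0h in KO-labelled and 4 in Rescue-labelled cells, 1 at 8h2h against 8h and 2 at 8h2h against 0h in Rescue-labelled cells, and 0 between the lines at 0h and 8h2h and in the other KO-labelled comparisons. A trended and robust prior gave 5 at 8h2h against 8h and 5 against 0h in KO-labelled cells. With no scaling between arrays there were 2 at 8h against 0h in either line, 2 at 8h2h against 0h in Rescue-labelled and 1 in KO-labelled cells, and 0 elsewhere. Nolc1 and Nhp2 then turned to 0.21 and 0.19 at 8h2h against 0h in KO-labelled cells. The median of all genes moved by 0.11 to 0.47 without scaling in all comparisons of groups but 8h2h against 8h in Rescue-labelled cells, where it moved by 0.07. With the slide as a replicate block there were 5 at 8h2h against 0h in KO-labelled cells and 1 at 8h2h against 8h in Rescue-labelled cells, 3 higher and 2 lower in the first and lower in the second. With the 3 arrays that stood apart left out, chosen after seeing the data, there were 2 and 6 between the lines at 0h and 8h, 13 at 8h against 0h in Rescue-labelled cells, 1 at 8h2h against 8h in Rescue-labelled cells and 5 and 8, all higher, at 8h2h against 0h in KO-labelled and Rescue-labelled cells.

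Leaving out 1 array at a time gave 0 to 1, 0 to 4 and 1 to 6 called members between the lines at 0h, 8h and 8h2h. It gave 5 to 12 and 4 to 10 at 8h against 0h in KO-labelled and Rescue-labelled cells, 0 to 5 and 0 to 1 at 8h2h against 8h, and 1 to 7 and 3 to 6 at 8h2h against 0h. The line differences in change had 0 calls in each setting. Of 36 calls, 2 held in all 29 alternatives, those of Ddx21 at 8h and at 8h2h against 0h in Rescue-labelled cells. The difference of Myc between the lines at 8h2h was -0.44 by its brightest probe and 0.11 by the mean of its probes. The cause of these shifts was not tested.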
